A study of Mus musculus with 12 samples.

Results

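The casein kinases form 2 separate families of serine/threonine kinases. Here 9 of their genes were read in mouse embryonic stem cells with and without treatment that directs eRF1 to degradation. The protein eRF1 is the factor that ends translation at stop codons. The members were taken by symbol: casein kinase 1 (CK1) alpha, delta, epsilon and the 3 gamma genes (Csnk1a1, Csnk1d, Csnk1e, Csnk1g1, Csnk1g2, Csnk1g3), and casein kinase 2 (CK2) with its catalytic genes Csnk2a1 and Csnk2a2 and its regulatory gene Csnk2b. All 9 were found among the 22034 symbols counted for ribosome footprints and the 49997 counted for poly(A) RNA, and all 9 passed the filter on low counts in every fit. The families were chosen by a measured value: the footprint change of Csnk1g1, which lay among the largest losses after treatment of Gcn2 knockout cells. Values from that comparison, and from those that hold it, are therefore described below without a test on the members.

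The cells were of the line ES-E14TG2a, a mouse embryonic stem cell line grown here in medium with LIF, a GSK3 inhibitor and a MEK inhibitor, and in every group, controls included, eRF1 carried a dTAG degron. The compound dTAG-13 brings tagged proteins to a ubiquitin ligase, which leads to their destruction. Footprints, the mRNA fragments shielded by 80S ribosomes from RNase, came from untreated and treated (500 nM, 1 h) cells of wild-type and of Gcn2 knockout genotype, with 2 biological replicates, A and B, in each of these 4 groups. Gcn2 slows initiation by phosphorylating eIF2 in amino acid shortage or when ribosomes stall. Poly(A) RNA came from the same 2 treatments in wild-type cells only, with 2 replicates each, so 12 libraries entered in all. Among these groups there is no vehicle control and no treated line without the tag, so effects of the compound and of the loss of eRF1 cannot be told apart, eRF1 protein was not measured in these tables, and the sources used here do not say whether the knockout is 1 clone. The labels call the replicates biological without saying whether they were separate cultures, so the p-values measure only the spread between these libraries.

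Footprint libraries held 7874804 to 19691716 counts each, and RNA libraries 17462458 to 24256097. The 2 replicates of a group differed beyond counting error, with a chi-squared statistic per degree of freedom of 2.88 to 25.2. The labelled cell type was checked on markers: all 10 naive pluripotency markers passed the filter, with summed footprint levels of 9508 to 10585 CPM (counts scaled to a common library total), against 5.33 to 10.04 CPM for 6 primitive endoderm markers and 4.70 to 10.2 CPM for 8 fibroblast markers, of which Postn was at 0 in every library. In RNA the naive markers summed to 5805 to 5889 CPM, but Pou5f1 was at 4.89 to 6.88 CPM there, against 1048 to 1395 CPM of footprints. In knockout footprints 1 of 4 tested primitive endoderm markers was called lower after treatment and all 4 were below 0. Over all tested genes 5.71% were called lower there and 45.5% were below 0. These 4 markers had few counts, from 2 (Sox17) to 76 (Dab2) per knockout footprint library. The part of their change in the members' values was not tested. Levels below are in CPM, and changes are log2 ratios of treated to untreated cells unless stated. Scaling was within each assay, so all levels and changes are relative to the other genes. A shift shared by all genes was not measured. Because the tables hold no gene lengths, levels are compared between samples and not between genes.

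CK1 enzymes work as single chains and often need a phosphate already placed near their target site. CK1 alpha places the priming phosphate on beta-catenin that lets GSK3 mark it for destruction, CK1 delta and epsilon phosphorylate the PER proteins of the circadian clock and act in the last steps of 40S ribosome subunit maturation, and the CK1 gamma enzymes are tied to the plasma membrane by a lipid anchor, where they phosphorylate the Wnt co-receptor LRP6. CK2 is a tetramer of catalytic alpha or alpha prime chains, the products of Csnk2a1 and Csnk2a2, held together by a dimer of the beta chain from Csnk2b. It is active without a second messenger and phosphorylates sites rich in acidic residues on nucleolar, chromatin and translation proteins.

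Start sites are shown for 4 members, 1 whose footprints changed most (Csnk1g1), its gamma paralog that did not follow (Csnk1g2) and both catalytic CK2 genes, to show the letters around the starts of genes whose footprints took different courses. The sequences are RefSeq's for GRCm38.p6, with 20 bases before the annotated start in lower case and the first 10 transcribed bases in capitals. They lie at chr9:65908990-65909019 on the plus strand for Csnk1g1, chr10:80622760-80622789 plus for Csnk1g2, chr2:152226820-152226849 plus for Csnk2a1 and chr8:95488811-95488840 minus for Csnk2a2.
Csnk1g1: tggctcggccgcccctcaacTGGTCTTCCC
Csnk1g2: ctccgcggagcgggcgcggcGGAGCGGCGG
Csnk2a1: tccgccccgcctctggttggGAGGGGGCTT
Csnk2a2: gggtttcctccgcctcctccTCCTCCCTCT
The first 50 transcribed bases held 88% pyrimidines at the Csnk1g1 start, more than 99.9% of all 32851 annotated start windows, and 76% at the Csnk2a2 start, more than 99.2% of them. The Csnk2a1 start held 54% and the first of the Csnk1g2 starts 50%, against a median of 48% over all windows. An oligopyrimidine start was searched on the transcribed strand as a C at the first base followed by 4 pyrimidines. It was in none of the 12 windows read for 6 of the members, and in 2.51% of all windows. Windows of Csnk1a1, Csnk1d and Csnk1g3 were not read, so the count says nothing about the starts of these genes. These matches describe letters at annotated starts, and the starts used in these cells were not measured.

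In wild-type cells, footprints of Csnk1g1 and Csnk1a1 fell after dTAG-13, and no member rose. With 2 of 9 members called lower at an adjusted p under 0.05, the count stands beside 1.94% of the 12267 tested genes called lower and 4.88% called in either direction. The members' median change was -0.22, against -0.01 over all tested genes. In bulk libraries like these, fewer cells with footprints on a gene and fewer footprints per cell cannot be told apart. Within CK1 the median was -0.47, with 5 of 6 genes below 0 (51.2% of all tested genes were), and within CK2 it was -0.04.

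Csnk1a1, which encodes CK1 alpha (chromosome 18, 61554236 to 61590320, gene 93687), had 242 and 191 CPM in the untreated wild-type libraries A and B and 124 and 122 CPM in the treated ones. Both treated libraries were below both untreated ones. Its log2 change was -0.82 (SE 0.129, adjusted p = 0.00427, edgeR quasi-likelihood test), a 1.76-fold loss. When each of the 4 libraries was left out in turn, its change ran from -0.98 to -0.64 and the call held each time. Without the knockout libraries in the fit it was -0.81 and no longer called (adjusted p = 0.0687).

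Csnk1g1, the CK1 gamma 1 gene (chromosome 9, 65908968 to 66045015, gene 214897), had 11.1 and 10.2 CPM before treatment and 5.04 and 4.50 CPM after it, from 222 and 182 counts and from 38 and 63 counts. The 2 pairs did not overlap, and each treated library was below 6 CPM. It changed by -1.17 (SE 0.222, adjusted p = 0.0109), the lowest value of the family and the 58th lowest of all tested genes. The call was lost without untreated replicate A (-1.10, adjusted p = 0.0521), without treated replicate B (-1.07, adjusted p = 0.0833) and with the wild-type libraries fitted alone (-1.16, adjusted p = 0.0687).

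The other gamma genes did not pass the threshold. Csnk1g3 (chromosome 18, 53862082 to 53955684, gene 70425) had 8.14 and 8.43 CPM in untreated and 5.71 and 5.36 CPM in treated wild-type cells, a change of -0.59 (SE 0.215, 95% interval -1.05 to -0.12, adjusted p = 0.149). Csnk1g2 (chromosome 10, 80622676 to 80640771, gene 103236) went the other way, from 11.1 and 12.3 CPM to 14.6 and 12.8 CPM, a change of 0.22 (SE 0.182, interval -0.18 to 0.61, adjusted p = 0.575). The replicates of both genes stayed apart between the groups, in opposite directions. Csnk1g3 rested on 163 and 151 counts before and 43 and 75 after, the fewest of the family in both untreated libraries.

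Csnk1d, the clock kinase CK1 delta (chromosome 11, 120957709 to 120991350, gene 104318), had 101.2 and 91.2 CPM in untreated and 77.4 and 74.0 CPM in treated wild-type cells. Its change of -0.35 (SE 0.116, interval -0.60 to -0.10) missed the threshold, with an adjusted p of 0.113. Csnk1e, the closest relative of Csnk1d (chromosome 15, 79417852 to 79455579, gene 27373), had 70.0 and 65.2 CPM before and 53.2 and 62.9 CPM after, a change of -0.22 (SE 0.128, interval -0.49 to 0.06, adjusted p = 0.394). For both genes each treated library was below each untreated one. Counting unadjusted p-values under 0.05, 4 of 9 members qualified (Csnk1a1, Csnk1d, Csnk1g1 and Csnk1g3), beside 19.0% of all tested genes.

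No CK2 gene passed the threshold in wild-type cells. Csnk2a1, the alpha chain gene (chromosome 2, 152226535 to 152281856, gene 12995), had 231 and 237 CPM in untreated and 191 and 212 CPM in treated libraries, a change of -0.22 (SE 0.109, interval -0.45 to 0.02, adjusted p = 0.308). The alpha prime gene Csnk2a2 (chromosome 8, 95446096 to 95488868, gene 13000) had 103.0 and 95.4 CPM before and 105.9 and 106.6 CPM after, a change of 0.10 (SE 0.111, interval -0.14 to 0.34, adjusted p = 0.7). Csnk2b, the beta chain gene (chromosome 17, 35116195 to 35122053, gene 13001), had 273 and 258 CPM before and 255 and 262 CPM after, with overlapping groups. Its change was -0.04 (SE 0.108, interval -0.27 to 0.20, adjusted p = 0.899). These intervals leave room for a loss of Csnk2a1 of up to 0.45 on the log2 scale. How many of all tested genes had groups that stayed apart was not counted, so nothing is read from the members whose groups did.

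**Figure D1:**
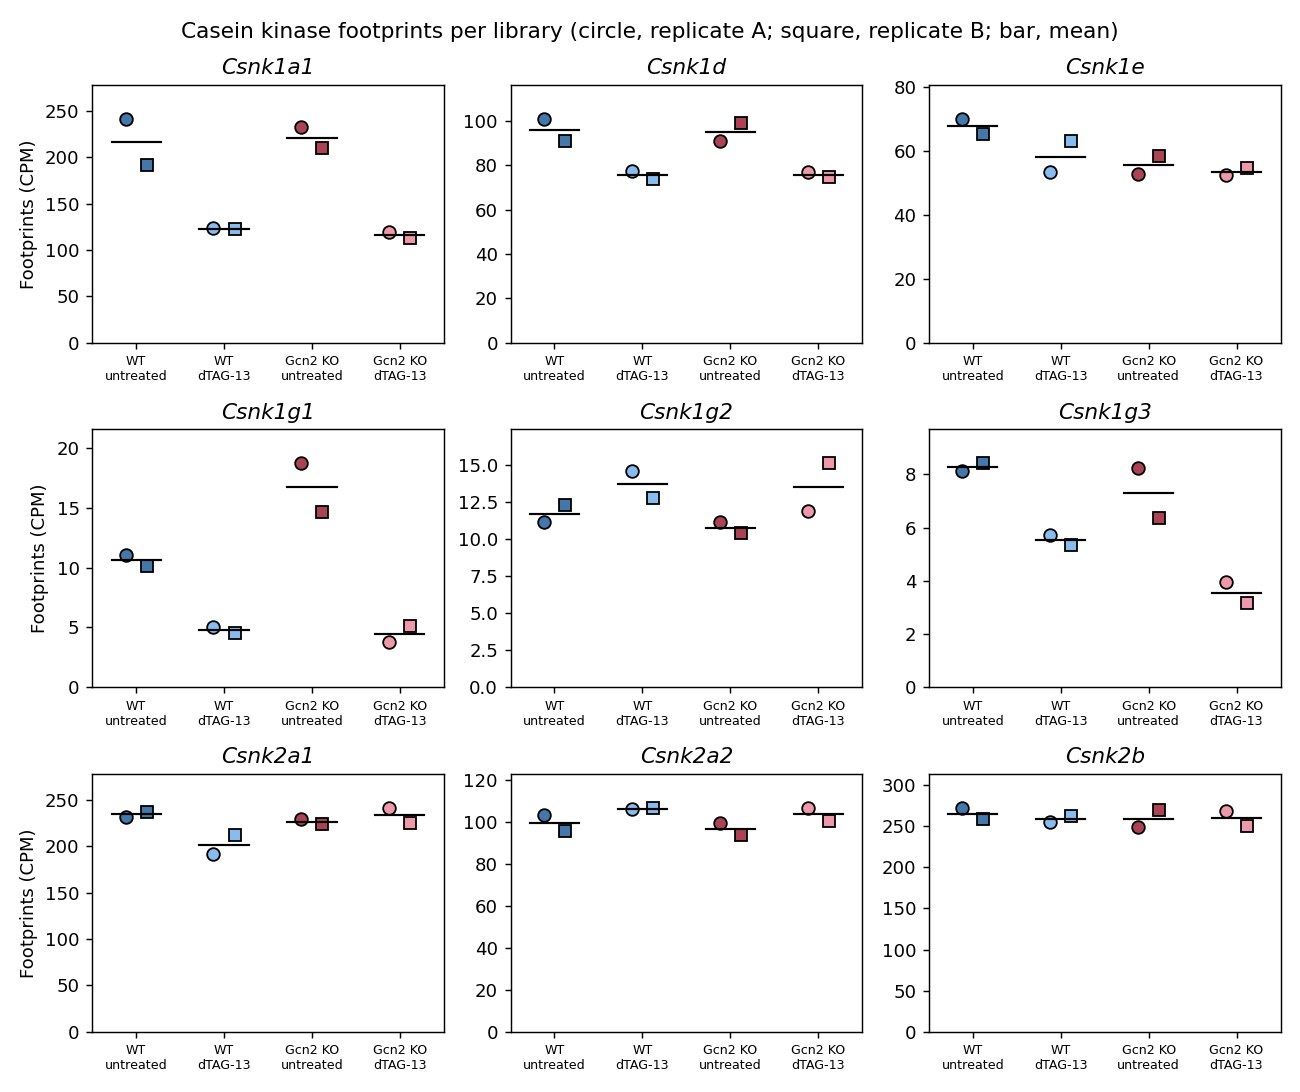
Footprint levels of the 9 casein kinase genes in the 8 footprint libraries, in CPM on a linear axis from 0 whose range differs between panels, 1 panel per gene; circles are replicate A, squares replicate B and bars the mean of each group on the horizontal axis. Csnk1a1 and Csnk1g1 sit lower in every treated library than in any untreated library of the same genotype, while the Csnk2b libraries lie between 249 and 273 CPM in all groups.

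In Gcn2 knockout cells, Csnk1g1 was the member with the largest loss, and this comparison chose the families. It had 18.7 and 14.7 CPM in the untreated libraries (335 and 252 counts) and 3.78 and 5.15 CPM in the treated ones (44 and 75 counts), a change of -1.89 (SE 0.213) and the 11th lowest of 12267 genes. Csnk1a1 had 232 and 210.2 CPM before and 119.5 and 112.5 CPM after, a change of -0.93 (SE 0.128). Csnk1g3 had 8.22 and 6.35 CPM before and 3.96 and 3.16 CPM after, a change of -1.04 (SE 0.223). For these 3 genes the treated libraries lay below the untreated ones with no overlap. They were the 3 of 9 members past the threshold, all lower, beside 5.71% of all tested genes lower and 8.88% in either direction, and nothing is read from that count. Csnk1g3 was past it in 1 of the 4 fits that left out a library, and not without untreated A (-0.84), treated A (-1.24) or treated B (-0.92).

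The remaining members moved less in knockout cells. Csnk1d went from 91.1 and 99.2 CPM to 76.9 and 74.6 CPM, a change of -0.33 (SE 0.115) that was past the threshold only when the knockout libraries were fitted alone (-0.36). Csnk1e went from 52.6 and 58.3 CPM to 52.4 and 54.5 CPM, a change of -0.05 with overlapping groups. The gamma 2 gene Csnk1g2 was again higher in both treated than in both untreated libraries, from 11.1 and 10.4 CPM to 11.9 and 15.1 CPM, a change of 0.33 (SE 0.181) short of the threshold. CK2 stayed near 0 in change: 0.04 for Csnk2a1, 0.10 for Csnk2a2 and 0.00 for Csnk2b, each with an SE of 0.108 to 0.111. Treated knockout replicate B was tied to its data by the letter in its title alone, since its description repeats that of replicate A. The change of each gene does not depend on which of the pair is called A.

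The difference between the genotypes, knockout change minus wild-type change, was -0.72 (SE 0.310) for Csnk1g1 and -0.46 (SE 0.312) for Csnk1g3. It was 0.26 (SE 0.154) for Csnk2a1, 0.16 for Csnk1e, 0.11 for Csnk1g2 and -0.11 for Csnk1a1, and within 0.04 of 0 for Csnk1d, Csnk2a2 and Csnk2b. By edgeR 0 of 9 members were past the threshold, beside 0.0489% of all genes, and by DESeq2 0 of the 6 to which it gave an adjusted p (the 3 gamma genes got none). Nothing is read from these counts, since this contrast holds the value that chose the families, and the larger loss of Csnk1g1 in knockout cells is given as a value and not as a tested difference.

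Before treatment, the genotypes differed most in Csnk1g1 and Csnk1e. Csnk1g1 was higher in the untreated knockout libraries (18.7 and 14.7 CPM) than in the untreated wild-type ones (11.1 and 10.2 CPM), a log2 difference of 0.65 (SE 0.191), given without a test because the knockout libraries are those that chose it. It ran from 0.47 to 0.82 when a library was left out. After treatment the 4 values lay together, at 3.78 and 5.15 CPM in knockout and 5.04 and 4.50 CPM in wild-type cells. The treated levels therefore overlapped between the genotypes while the untreated levels did not. Csnk1e was lower in untreated knockout than in untreated wild-type cells by -0.29 (SE 0.126, adjusted p = 0.81), and the others lay between -0.18 and 0.03. By edgeR and by DESeq2 0 of the 8 members other than Csnk1g1 were called, with 1 of these 8 (Csnk1e) at an unadjusted p under 0.05, beside 0.00815% of all genes called and 5.98% at that unadjusted level.

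**Figure D2:**
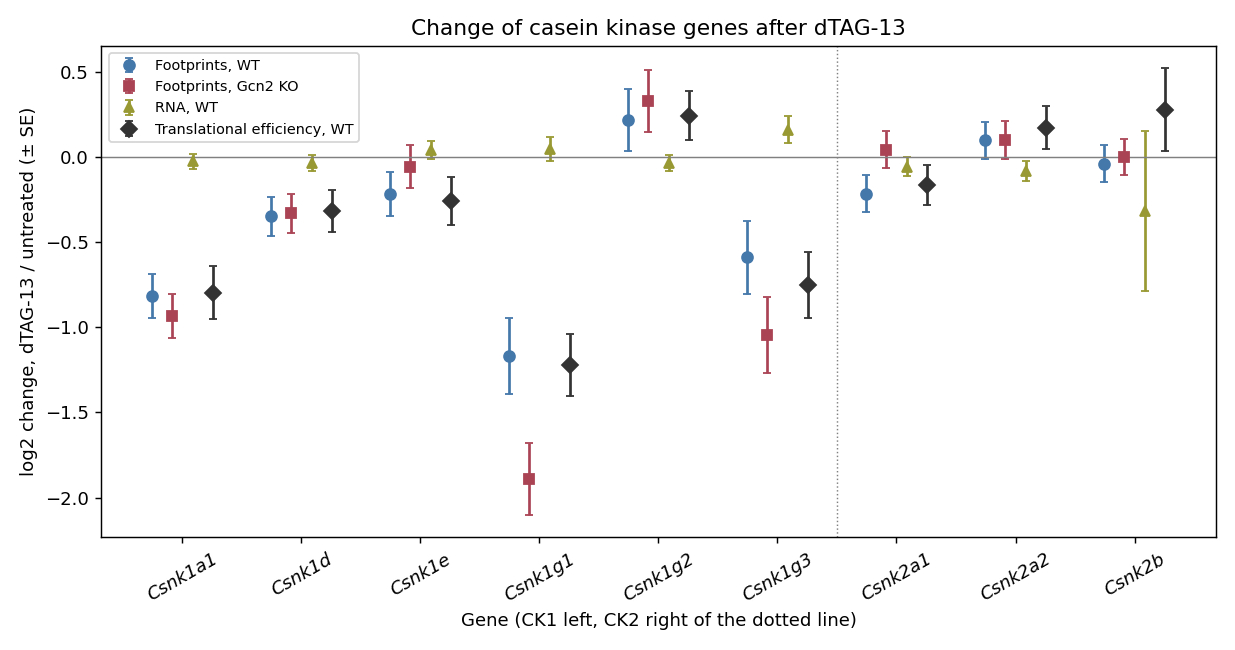
Log2 changes after dTAG-13 for each of the 9 genes, with bars of 1 SE: footprints in wild-type cells, footprints in Gcn2 knockout cells, RNA in wild-type cells and translational efficiency in wild-type cells. Csnk1g1 has the lowest footprint change in both genotypes (-1.17 and -1.89), and its RNA change is 0.05.

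The RNA of these genes was not called changed. By edgeR 0 of 9 members passed the threshold, and 0 by DESeq2, with 1 of 9 at an unadjusted p under 0.05, beside 0.163% of 15955 genes called and 5.13% at that unadjusted level. Csnk1g1 RNA was at 42.8 and 46.6 CPM in untreated and 45.8 and 46.6 CPM in treated cells, a change of 0.05 (SE 0.0713, interval -0.10 to 0.19, adjusted p = 0.993). Csnk1a1 RNA was at 365 and 371 CPM before and 359 and 365 CPM after, a change of -0.02 (SE 0.0452, interval -0.11 to 0.07, adjusted p = 0.993). Both intervals exclude a loss as large as that of the same gene's footprints. Csnk1g3 RNA, at 32.7 and 38.6 CPM before and 40.9 and 38.5 CPM after, had the highest change, 0.16 (SE 0.0788, adjusted p = 0.939), with overlapping groups. Csnk1d, Csnk1e, Csnk1g2, Csnk2a1 and Csnk2a2 lay between -0.08 and 0.04. Csnk2b rested on 23 and 19 counts before and 17 and 13 after, so its value of -0.32 has an SE of 0.472.

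Counts are per gene, so footprints at stop codons were not set apart, and protein output was not measured. Translational efficiency is the footprint change read against the RNA change in one model of the 8 wild-type libraries. It fell for Csnk1g1 and Csnk1a1 relative to the other genes. Its change was -1.22 for Csnk1g1 (SE 0.180, adjusted p = 0.0171) and -0.80 for Csnk1a1 (SE 0.154, adjusted p = 0.039). These were 2 of 9 members called lower, beside 0.691% of 12887 genes called lower and 1.47% in either direction, and the footprint libraries are those of the wild-type footprint comparison. Csnk1g3 followed at -0.75 (SE 0.195, interval -1.18 to -0.32, adjusted p = 0.0919). Csnk1d was at -0.32 (adjusted p = 0.271), Csnk1e at -0.26 (adjusted p = 0.458) and Csnk2a1 at -0.16 (adjusted p = 0.612). Above 0 were Csnk2a2 at 0.18 (adjusted p = 0.603), Csnk1g2 at 0.25 (adjusted p = 0.5) and Csnk2b at 0.28 (SE 0.244, adjusted p = 0.777). The value of Csnk2b rests on the few RNA counts given above, and nothing is read from it. Neither call held when any 1 of the 4 RNA libraries was left out, where no gene of all passed: Csnk1g1 then ran from -1.28 to -1.16 (adjusted p from 0.134 to 0.165) and Csnk1a1 from -0.81 to -0.79 (adjusted p from 0.214 to 0.241). Csnk1a1 was also short of the threshold without treated footprint replicate A (-0.81, adjusted p = 0.0611) or B (-0.79, adjusted p = 0.0519).

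Shares within the gamma group show the same libraries on a scale that does not depend on library size. Csnk1g1 held 36.5% (95% exact Clopper-Pearson interval 32.7 to 40.5) and 32.9% (29.0 to 37.0) of the footprints on the 3 gamma genes in untreated wild-type cells, and 19.9% (14.5 to 26.3) and 19.9% (15.6 to 24.7) in treated ones. In the knockout its share was 49.2% and 46.8% before and 19.3% and 22.0% after. Csnk1g2 took the opposite course, from 36.7% and 39.8% to 57.6% and 56.5% in wild-type and from 29.2% and 33.0% to 60.5% and 64.5% in knockout cells. The share of Csnk1g1 was thus lower, and that of Csnk1g2 higher, in every treated library than in any untreated one, and as shares of a fixed total they are not independent: the footprint change of Csnk1g2 itself was not called. In RNA the share of Csnk1g1 was 15.1% and 15.3% before and 15.5% and 15.8% after, and that of Csnk1g2 stayed between 70.6% and 73.4%. The intervals cover counting error only.

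**Figure D3:**
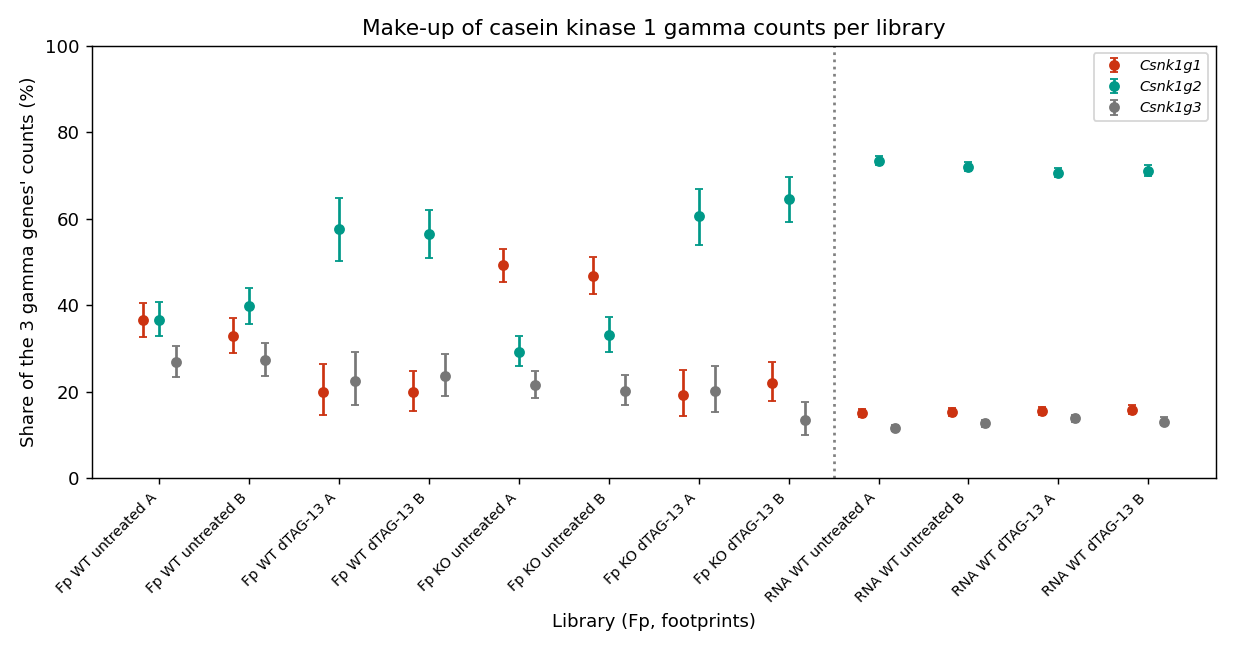
Share of each CK1 gamma gene in the counts on the 3 gamma genes, in percent, for each of the 12 libraries, footprints left and RNA right of the dotted line, with 95% Clopper-Pearson bars for counting error. The Csnk1g1 share of footprints is 32.9% to 49.2% in untreated and 19.3% to 22.0% in treated libraries, while its share of RNA counts stays between 15.1% and 15.8%.

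The paired catalytic genes of the other subfamilies kept their proportions more closely. Csnk2a1 held 69.2% and 71.3% of the footprints on Csnk2a1 and Csnk2a2 in untreated and 64.4% and 66.6% in treated wild-type cells. In the knockout it held 69.7% and 70.5% before and 69.4% and 69.2% after. The treated wild-type libraries were thus the lowest of the 8. Csnk1d held 54.1% to 63.4% of the footprints on Csnk1d and Csnk1e over all 8 libraries, with the highest values in the untreated knockout.

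The gamma genes had low footprint to RNA ratios in untreated wild-type cells. Over 12887 genes the median log2 ratio was -0.61. Csnk1g2 was far below it at -4.35 (SD 0.107 over replicates, n = 2), under all but 1.78% of genes, with 11.1 and 12.3 CPM of footprints against 208.6 and 219.9 CPM of RNA. Csnk1g3 at -2.25 (SD 0.166) and Csnk1g1 at -2.22 (SD 0.123) stood at the 11.2 and 11.5 percentiles and did not differ beyond their spread. All 3 gamma genes were thus among the lowest 11.5% of genes on this scale. Csnk1d was at -1.27 (SD 0.110), Csnk1e at -0.98 (SD 0.0903), Csnk1a1 at -0.94 (SD 0.242) and Csnk2a2 at -0.26 (SD 0.117). Csnk1e and Csnk1a1 did not differ beyond their spread. A ratio of this kind also depends on how long the regions counted for footprints and for RNA are. The sources used here do not name these regions, and the part of their lengths in the ranks was not tested.

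The RNA counts of the CK2 genes carry limits of their own. Csnk2b had a ratio of 7.88 (the 99.8 percentile) because its RNA was at 0.946 and 0.865 CPM against 273 and 258 CPM of footprints. Within 100 kb of Csnk2b on chromosome 17, 12 protein-coding genes had at least 100 footprints in the untreated wild-type libraries, and 10 of them, Csnk2b included, had RNA counts under 0.1 times their footprint counts, against 3.8% of 9932 such genes in the whole table. Examples are its overlapping neighbour Gpank1 with 407 footprints and 0 RNA counts, and Bag6 with 10001 and 403. Low RNA counts are thus shared by the genes around Csnk2b, their part in its ratio was not tested, and no RNA or efficiency result for Csnk2b should be read from 42 untreated counts. Csnk2a1 was at 0.80 (SD 0.0444), but the annotated pseudogene Csnk2a3 (chromosome 1, 156523971 to 156526664) had RNA counts close to its own, 3109 and 2682 against 2969 and 2594 in untreated cells. The symbol Csnk2a3 was looked for among those counted for footprints and was not found. With the Csnk2a3 counts added, a setting chosen after seeing the data, the ratio of Csnk2a1 was -0.23, its RNA change -0.02 and its efficiency change -0.19 (adjusted p = 0.53). The level of Csnk2a1 RNA is uncertain, and its change is less so.

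**Figure D4:**
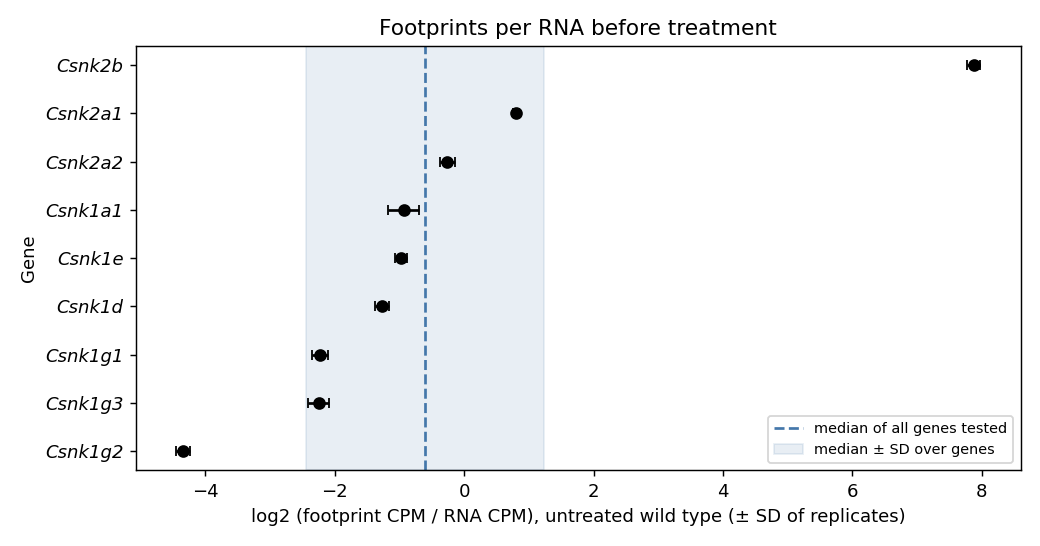
Log2 ratio of footprint to RNA CPM in untreated wild-type cells for each of the 9 genes: points are means of 2 replicates with bars of 1 SD, the dashed line is the median of all 12887 genes (-0.61) and the shaded band reaches 1 SD over genes to either side. The gamma genes lie at -2.22 or lower, and Csnk2b stands at 7.88 on few RNA counts.

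Genes with a footprint pattern like that of Csnk1g1 were ranked over the 8 libraries by the root-mean-square difference of log2 CPM, each gene centred on its own mean, among the 8108 genes whose mean log2 CPM reached 3. The nearest was Bhlhe40, a transcriptional repressor of the clock, at 0.259, followed by Fem1b, a substrate receptor of a ubiquitin ligase, at 0.308. R3hdm1 was at 0.338, Sec24a, a cargo adaptor of COPII vesicles, at 0.346 and the NAD kinase gene Nadk at 0.358. The mean log2 CPM of Csnk1g1 itself was 2.99, just under that limit. In wild-type and in knockout cells the changes were -1.16 and -1.30 for Bhlhe40, -0.76 and -1.37 for Fem1b, and -0.92 and -1.52 for R3hdm1. They were -0.81 and -1.21 for Sec24a, and -1.54 and -1.05 for Nadk, which alone of the 5 had the larger loss in wild-type cells. Since the ranking used these same libraries, changes like those of Csnk1g1 follow from it, and nothing is read from them. Among the members, Csnk1a1 was nearest to Csnk1g1 at 0.413 and Csnk1g3 next at 0.535, and Csnk1g2 was farthest at 0.932. The nearest member to both Csnk1a1 and Csnk1g3 was the other of the 2, at 0.246, and the closest pair of all 9 was Csnk2a2 and Csnk2b at 0.0792. Within the gamma group the paralogs of Csnk1g1 thus differed. Csnk1g3 was nearer to it than every other member but Csnk1a1, and Csnk1g2 was the farthest. These distances are a description over 8 libraries that share their treatment groups.

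The counts for the lists of related genes stand beside 2.94% of all tested genes called higher and 1.94% called lower in wild-type footprints, and 3.16% and 5.71% in knockout footprints. Every call of a list gene in wild-type footprints named below was lost in a fit of the wild-type genotype by itself, with adjusted p from 0.0707 (Ncl) to 0.17 (Nr1d2). Of 18 genes of beta-catenin destruction and the Wnt relay, 1 fell and 0 rose in wild-type footprints (median -0.14). It was Tnks2, a tankyrase that marks axin for degradation, at 154.5 and 161 CPM before and 98.2 and 109.1 CPM after (-0.61, SE 0.124, adjusted p = 0.0146), and it was not called without untreated A (adjusted p = 0.0512) or treated A (adjusted p = 0.0937). In knockout cells 4 fell and 1 rose (median -0.26), and the calls of Gsk3b and of the list as a whole rest on libraries shared with the Csnk1g1 comparison. Gsk3b, the kinase that acts on beta-catenin after CK1 alpha, went from 60.2 and 60.9 CPM to 32.9 and 28.7 CPM there (-0.98, SE 0.143, adjusted p = 0.00133), a call kept in all 4 fits without a library. In wild-type cells Gsk3b was at -0.27 (adjusted p = 0.313), and the difference between genotypes was -0.70 (adjusted p = 0.255). Tnks2 (-0.56) and the Wnt relay gene Dvl1 (0.91, the only one higher) were each called in 1 of those 4 fits, and the count for the list ran from 1 to 4. The other 2, Axin2 (-0.59) and the co-receptor Lrp6 (-0.48), a target of CK1 gamma, are named after their values were seen.

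Of 9 Hedgehog relay genes, another CK1-regulated pathway, 0 were called in wild-type footprints by edgeR or by DESeq2 (2 at an unadjusted p under 0.05, median 0.14). In knockout cells 1 fell, Sufu, the cytoplasmic inhibitor of GLI factors, from 23.0 and 26.3 CPM to 11.4 and 9.96 CPM (-1.21, SE 0.157, adjusted p = 0.000671), kept in all 4 fits without a library. Its wild-type value was -0.38 (adjusted p = 0.197), and the difference was -0.83 (adjusted p = 0.231). Of 12 clock genes tested, 2 fell in wild-type footprints and 0 rose (median -0.17). Bhlhe40 went from 31.3 and 21.2 CPM to 11.01 and 12.4 CPM (-1.16, SE 0.203, adjusted p = 0.00696), a call lost without untreated A (-0.85, adjusted p = 0.0512), and its loss was called in knockout cells too, the only clock gene there (-1.30, SE 0.198, adjusted p = 0.00161). The nuclear receptor gene Nr1d2 was at -0.74 (adjusted p = 0.0484), a call lost in each fit without a library.

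Among 10 tested CK1 relatives and anchors, 2 rose in wild-type footprints and 0 fell (median -0.01). They were Ddx3x, an RNA helicase that binds and activates CK1 (0.68, SE 0.137, adjusted p = 0.014), and the vaccinia-related kinase Vrk1 (0.53, SE 0.123, adjusted p = 0.0267). Ddx3x kept its call in 1 of 4 fits without a library, the one without untreated B, and Vrk1 in none. In knockout cells 0 of 10 were called by edgeR or by DESeq2, with 4 at an unadjusted p under 0.05. Of 8 genes of late 40S maturation, the process in which CK1 delta and epsilon take part, 1 rose in wild-type cells, the assembly factor Tsr1 (0.45, SE 0.112, adjusted p = 0.0355), kept only without treated B. In knockout cells Tsr1 rose (0.48, adjusted p = 0.0189, kept in none of the 4 fits without a library) and the endonuclease gene Nob1 fell from 190 and 192 CPM to 96.7 and 93.1 CPM (-1.01, SE 0.125, adjusted p = 0.000527), kept in all 4. Nob1 was at -0.24 in wild-type cells (adjusted p = 0.312), and the difference was -0.77 (adjusted p = 0.184). By DESeq2 1 of the 8 genes was called in that difference, against 0 by edgeR, with 1 at an unadjusted p under 0.05.

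For CK2, 22 partners and substrates were tested, of which 2 rose and 0 fell in wild-type footprints (median 0.11). The nucleolar CK2 substrate nucleolin, Ncl, went from 982 and 1208 CPM to 1964 and 1983 CPM (0.85, SE 0.149, adjusted p = 0.00712), a call lost without untreated A (0.71, adjusted p = 0.0521). The topoisomerase gene Top2a went from 270.0 and 380.1 CPM to 577 and 655 CPM (0.92, SE 0.189, adjusted p = 0.0171), a call lost without untreated A (adjusted p = 0.0886) or treated B (adjusted p = 0.0624). In knockout cells 2 fell and 0 rose, the ATPase gene Ruvbl1 (-0.49, adjusted p = 0.0122, kept in 1 of 4 fits without a library, the one without untreated B) and Telo2, whose product is linked to the R2TP chaperone complex by a CK2 phosphorylation (-0.63, adjusted p = 0.0461, kept in none). Translational efficiency in wild-type cells was called for 3 genes of the 6 lists, Tnks2 (-0.58, adjusted p = 0.0484), Ncl (0.87, adjusted p = 0.0317) and Top2a (0.97, adjusted p = 0.0451), and none of the 3 was called when an RNA library was left out. Tnks2 also lost this call without treated footprint replicate A (adjusted p = 0.0713) and with RLE scaling (adjusted p = 0.0505), Ncl without treated footprint replicate A (adjusted p = 0.0532), and Top2a without treated footprint replicate A (adjusted p = 0.0502) or B (adjusted p = 0.0726). No gene of these lists was called in RNA by edgeR or by DESeq2, with 0 to 3 per list at an unadjusted p under 0.05.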

How the data were processed

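The authors deposited whole-number read counts for each gene symbol in a footprint table and an RNA table. The submitters' processing notes list mm10 as build and, as tools, HISAT2 2.1.0, CASAVA 1.4 and cutadapt. How reads were assigned to genes, with which annotation and strand setting, and what was done with reads of several genes is not stated there. The columns carry codes, and each was tied to its sample through the genotype, treatment and replicate letter in the sample's title.

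The tests used edgeR 4.0.16 (R 4.3.3): filterByExpr with a minimum count of 10, TMM scaling and a robust quasi-likelihood fit, called at a two-sided Benjamini-Hochberg adjusted p under 0.05 over all genes tested. The 8 footprint libraries were fitted together (12267 genes, 4 residual degrees of freedom) and the 4 RNA libraries alone (15955 genes, 2 residual degrees of freedom). For translational efficiency the assay by treatment interaction was tested in wild-type cells, with TMM within each assay. An SE is the change divided by the root of its F statistic. The scripts were tested on simulated data. Depth sets the precision: a member with few counts has a wide interval.

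The members, lists and tests were chosen with earlier results of these data known. The text names the 9 members, up to 3 called genes per list with the smallest adjusted p in each of 4 comparisons (wild-type footprints, knockout footprints, RNA and efficiency) and the 5 genes most like Csnk1g1. The lists were beta-catenin destruction and Wnt relay, Hedgehog relay, circadian clock, CK1 relatives and anchors, late 40S maturation, and CK2 partners and substrates, besides the cell markers. Gene positions and start sequences are RefSeq's for GRCm38. DESeq2 1.42.0, RLE scaling, no filter, a replicate block, separate fits per genotype and leaving out libraries were the alternatives.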

Additional observations from a re-analysis of the deposited data

How the results depend on the processing

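Of the 9 members, 2 were called in wild-type footprints, and 0 in a fit of that genotype alone; leaving out 1 library gave 1 to 2. In the knockout the number past the threshold was 3, with Csnk1d added when the knockout libraries were fitted alone (-0.36). Nothing is read from that number, since this comparison chose the families. For efficiency it was 2, and 0 to 2 without a library. The median footprint to RNA ratio was -0.98, from -1.11 to -0.92 without a library. DESeq2, RLE scaling and no filter kept all member counts, though DESeq2 gave no adjusted p to Csnk1g3 in wild-type footprints or to the 3 gamma genes in the difference, and the counts for the difference, the untreated genotypes and RNA were 0 throughout. With the replicate block, 2 members were called in wild-type footprints, 3 in knockout footprints and 2 for efficiency, so it changed no member's count. Deviations of same-letter libraries correlated at 0.49 between untreated and treated wild-type footprints, and at 0.0116 to 0.129 between the other pairs of groups. The letters are not used as pairs. In the footprint fit the block was 1 term shared by both genotypes, so it could not fit a pairing of wild-type libraries alone. No called value changed sign, while uncalled values near 0 did in some fits without a library: wild-type Csnk2b ran from -0.08 to 0.00, knockout Csnk1e from -0.13 to 0.02 and untreated Csnk1a1 from -0.13 to 0.21. Where a library is left out its partner stands alone, and this lone library is assumed to vary like the others.

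Counts over all genes moved more. For wild-type footprints 599 were called, 1048 with no filter, 931 with the block, 19 with the genotype alone and 197 to 659 without a library. For the knockout it was 1089, then 1658, 1564, 1893 and 215 to 601. The difference gave 6, 114 with DESeq2, 192 with no filter, 39 with the block and 0 to 32 without a library, the untreated genotypes 1, 31, 113, 14 and 1 to 10. RNA gave 26, 7 with DESeq2, 16 with the block and 14 to 267 without a library, and efficiency 190, 452, 459 with no filter, 404 with the block and 0 to 671. The cause was not tested.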
